A study of Mus musculus with 23 samples.

Results

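The genes described here are 5 transcription factors that govern the lineage of type 1 conventional dendritic cells (cDC1): Irf8, Batf3, Id2, Zbtb46 and Nfil3. They were taken by symbol from the table of counts, so that 5 of its 13572 gene rows are considered. The cDC1 came from melanomas grown by subcutaneous injection of BRAFV600E melanoma cells into wild-type C57BL/6 mice. In the first group the injected cells were Ptgs1/Ptgs2 KO and lacked both cyclooxygenases, the enzymes that start the synthesis of prostaglandin E2. In the second group, the control, the injected cells kept both genes. All mice were wild type, so cells of the host kept Ptgs1 and Ptgs2 in both groups, and the labels do not say whether the KO line was 1 clone. Tumours were taken 6 days after injection, and CD103+ CD11b- dendritic cells (positive for CD45, MHC-II and CD11c) were sorted in pools of 10 cells. There were 4 mice per group, with 11 pools from KO tumours and 12 from control tumours, and counts of the pools of a mouse were added up, since these are technical replicates by their labels. The comparison asks how the absence of prostaglandin E2 made by the tumour is reflected in the factors that specify cDC1.

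cDC1 are the dendritic cells that take up dead tumour cells and present their antigens to CD8 T cells. In the mouse, IRF8, a member of the interferon regulatory factor family, commits progenitors to the lineage and is needed throughout the life of the cell. BATF3, a basic leucine zipper protein, pairs with a JUN protein, binds DNA together with IRF8 and keeps Irf8 transcribed in committed cells. ID2 has a helix-loop-helix domain without a DNA-binding region and holds E proteins away from their E-box sites, among them TCF4, the driver of the plasmacytoid dendritic cell (pDC) fate. NFIL3, a basic leucine zipper repressor, acts early and is needed for the progenitor that gives rise to cDC1. ZBTB46 is a zinc finger repressor shared by all conventional dendritic cells and is used to tell them from macrophages and pDC.

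The libraries held between 25571 and 98554 counts (median 49506), and mice held between 101017 and 230478. The 5 genes took 2746 of 1152561 counts, or 0.238%, so that Irf8 (1084 counts) and Id2 (1361) were well covered while Batf3 (127), Zbtb46 (92) and Nfil3 (82) were not. The defining cDC1 genes Xcr1, Clec9a, Wdfy4, Naaa, Cadm1 and Tlr3 together had between 89 and 186 counts in every KO pool and between 26 and 104 in every control pool (6 of 6 genes detected in both groups). Genes of other cells were present as well. Macrophage markers summed to 9 counts in the KO group and 157 in the control group, cDC2 markers to 36 and 154, pDC markers to 35 and 240, and T cell markers to 56 and 11. Monocyte markers had more counts, with 842 in the KO group and 515 in the control group, of which Plac8 had 674 and 417. B cell markers had 38 and 20. The pDC genes Siglech, Cox6a2, Ly6d and Klk1 had 0 counts in the KO group, which allows up to 5.95 CPM for each (3 counts in the group; CPM, the scaled count, is defined with the levels), and 42, 14, 34 and 11 counts in the control group. In pools of cells, fewer cells of a type and less RNA per cell cannot be told apart. Mitochondrial genes took 2.66% to 5.14% of counts in KO pools and 4.05% to 7.99% in control pools, and the part of this in the results was not tested.

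Levels are given as CPM, counts scaled by totals over the tested genes that were adjusted by the TMM method, and between genes only as CPM per kb of exon. On that scale Id2 was highest in both groups, with 784 ± 183 CPM per kb in KO tumours and 408 ± 169 in control tumours (mean ± SD, n = 4 mice each). Irf8 followed with 214 ± 29.1 and 119 ± 42.0 CPM per kb, and Batf3 with 91.8 ± 21.0 and 78.9 ± 23.7. Nfil3 came next with 31.9 ± 11 CPM per kb in KO tumours and 54.8 ± 10.5 in control tumours, and Zbtb46 was lowest with 15.6 ± 4.39 and 8.16 ± 3.72. Per kb, Id2 therefore exceeded Irf8 in 4 of 4 KO mice and 4 of 4 control mice, with ranges that did not overlap. The mean ratio per kb was 3.66 and 3.41. Irf8 and Batf3 were apart in KO mice, where the lowest Irf8 level (177 CPM per kb) exceeded the highest Batf3 level (110), but overlapped in control mice (78.1 and 108). Batf3 and Nfil3 were likewise apart in KO mice (67.1 and 40.7 CPM per kb) and overlapped in control mice (50.4 and 68.1). Nfil3 and Zbtb46 overlapped in KO mice (17.6 and 20.9 CPM per kb), and in control mice the lowest Nfil3 level of 42.5 exceeded the highest Zbtb46 level of 13.0. Whether whole transcripts or only their 5' ends were counted is not given in the sources used here. Without division by length, Zbtb46 and Nfil3 changed places in KO mice. Id2 and Irf8 then overlapped, with 1495 to 2427 and 1250 to 1745 CPM in KO mice. In control mice they had 645 to 1586 and 551 to 1204 CPM. In KO mouse 2 Id2 was below Irf8 (126 and 132 counts), and control mouse 1 had 82 counts of each.

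**Figure D1:**
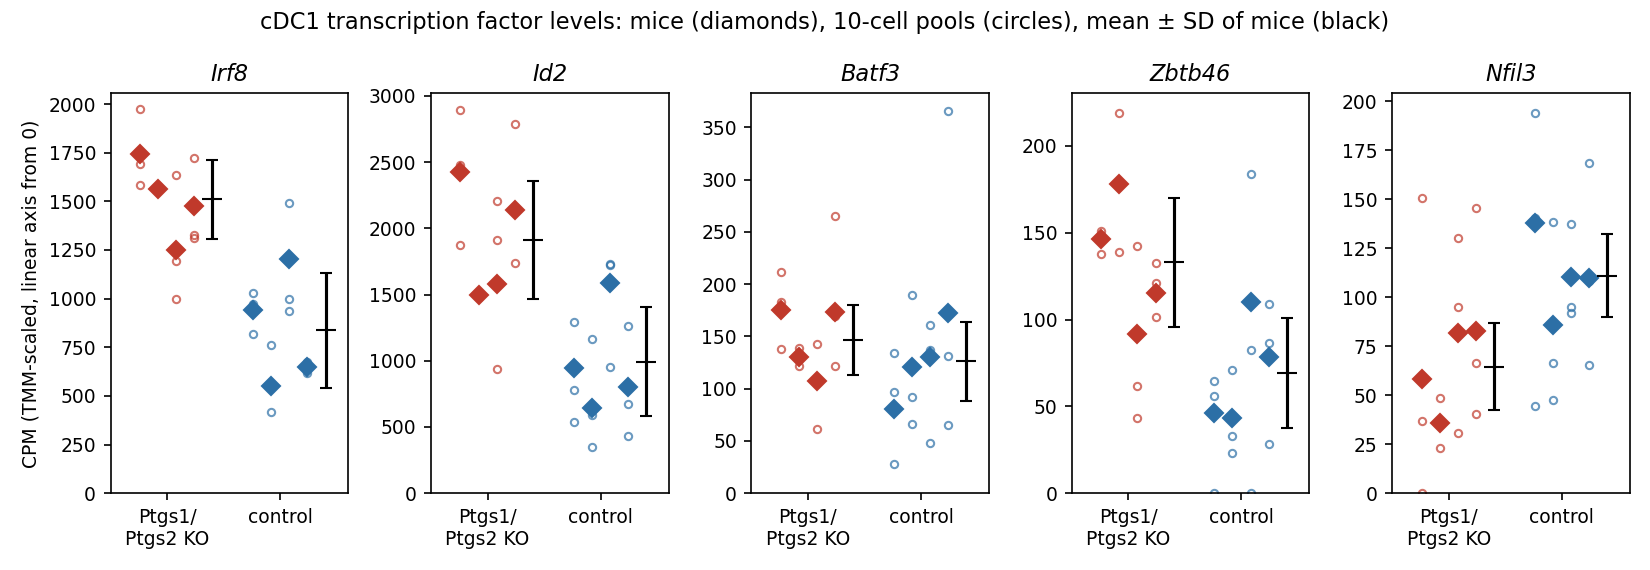
Levels of the 5 genes in CPM on a linear axis from 0, with Ptgs1/Ptgs2 KO left and control right in each panel; diamonds are mice, open circles are their pools of 10 cells, and the black bar is the mean ± SD of 4 mice. All 4 KO mice lie above all 4 control mice for Irf8 and below them for Nfil3, while the groups overlap for Id2, Batf3 and Zbtb46.

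The promoters of 3 members are shown because 2 of them, Irf8 and Id2, were higher with KO tumours and the remaining one, Nfil3, had the opposite sign. All 5 genes matched a promoter window of RefSeq (build GRCm38.p6), which runs from 250 bases before to 50 bases after the start site. The table holds 6 windows for the 5 genes, since Irf8 has another at a start site 2281 bases downstream. The window of Irf8 at its annotated start is chr8:120736108-120736407 on the plus strand, that of Id2 chr12:25096043-25096342 on the minus strand and that of Nfil3 chr13:52980990-52981289 on the minus strand. Capitals mark every match to a searched motif on either strand, and the 5' end is at the left:
Irf8: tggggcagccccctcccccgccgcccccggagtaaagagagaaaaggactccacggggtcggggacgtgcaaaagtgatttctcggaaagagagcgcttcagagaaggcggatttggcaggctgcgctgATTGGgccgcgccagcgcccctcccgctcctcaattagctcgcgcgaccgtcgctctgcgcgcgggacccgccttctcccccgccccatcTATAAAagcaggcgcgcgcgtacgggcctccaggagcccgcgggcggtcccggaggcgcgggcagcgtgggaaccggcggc
Id2: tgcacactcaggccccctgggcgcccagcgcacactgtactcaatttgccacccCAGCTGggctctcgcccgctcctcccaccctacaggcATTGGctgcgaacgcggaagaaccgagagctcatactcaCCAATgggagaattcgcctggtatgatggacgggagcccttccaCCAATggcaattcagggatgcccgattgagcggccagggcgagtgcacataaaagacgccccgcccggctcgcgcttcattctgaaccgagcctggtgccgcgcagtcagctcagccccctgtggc
Nfil3: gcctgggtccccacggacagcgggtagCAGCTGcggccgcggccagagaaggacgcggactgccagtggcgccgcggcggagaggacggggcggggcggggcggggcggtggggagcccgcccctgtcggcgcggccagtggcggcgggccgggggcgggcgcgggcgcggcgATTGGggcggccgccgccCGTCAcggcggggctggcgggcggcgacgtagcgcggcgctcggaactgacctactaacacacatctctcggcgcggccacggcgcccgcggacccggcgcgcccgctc
The motifs searched were the cyclic AMP response element TGACGTCA, its partial form TGACG, the AP-1 element TGANTCA, the interferon-stimulated element, the Ets-IRF composite element, the E-box CANNTG, the NFIL3 element TTANGTAA, the TATA box TATAAA and the CCAAT box CCAAT. The partial form lies within the full cyclic AMP element. The Irf8 window held a TATA box whose first base was at -31, which 13.6% of 32544 windows of that length hold, and a reversed CCAAT box at -121, which 37.4% hold. The Id2 window held 3 CCAAT boxes and 1 E-box, a motif present in 72.3% of windows. The Nfil3 window held 1 reversed partial cyclic AMP element at -59, as 20.9% of windows do, besides 1 E-box and 1 CCAAT box. None of the 3 windows held the letters of the full cyclic AMP element (1.8% of windows), the AP-1 element (7.79%), the interferon-stimulated element (3.45%), the Ets-IRF element (2.73%) or the NFIL3 element (2.29%). In the other windows, the downstream one of Irf8 held 2 E-boxes and no other motif searched, that of Zbtb46 held an AP-1 element and 6 E-boxes and that of Batf3 held 2 E-boxes. The share of G and C was 70% in the printed window of Irf8, 63.3% in Id2, 81.7% in Nfil3, 75.7% in Batf3, 54.7% in the downstream window of Irf8 and 50.7% in Zbtb46, against a median of 53.0% over all windows. The annotated gene start of GENCODE M21 lay at the RefSeq start for Irf8, 34 bases away for Nfil3, 567 for Batf3, 1048 for Id2 and 35038 for Zbtb46, so the Zbtb46 window belongs to an internal start.

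In the comparison of KO with control tumours, Irf8 and Id2 rose, Batf3 and Zbtb46 were tested and not called, and Nfil3 had too few counts for the test and lower values in KO tumours. Across the table, 103 of 2076 tested genes (4.96%) had an adjusted p under 0.05 in edgeR's quasi-likelihood test, 56 of them (2.7%) higher and 47 (2.26%) lower in KO. The calls of Irf8 and Id2 are thus 2 of 4 tested members, a small number chosen with earlier results known.

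Irf8 (ENSMUSG00000041515, chromosome 8, 120736358 to 120756694, plus strand) had 1745, 1566, 1250 and 1478 CPM in the 4 KO mice, against 943, 551, 1204 and 651 CPM in the 4 control mice. Every KO mouse was above every control mouse, a separation found in 4.91% of tested genes, although KO mouse 3 and control mouse 3 nearly met. The log2 fold change was 0.85 ± 0.21 (SE, 95% interval 0.42 to 1.29, edgeR adjusted p = 0.0215). Over pools, Irf8 ran from 999 to 1976 CPM with a median of 1577 in KO tumours, and from 415 to 1492 with a median of 790 in control tumours. It was above every control pool in 7 of 11 KO pools, and 10 of 12 control pools were below every KO pool. The call was lost without KO mouse 1 or 4 or control mouse 2 or 4, and without the single pool 2 of KO mouse 2 (adjusted p = 0.0558). It was also lost from pools 2 and 3 of each mouse alone (log2 fold change 0.80, adjusted p = 0.0577) and in all 3 settings that left out pools rich in markers of other cells, in which the log2 fold change was 0.75, 0.47 and 0.30. A gene model that GENCODE M21 places over Irf8 on the same strand, Gm20388, was not analysed here.

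Id2 (ENSMUSG00000020644, chromosome 12, 25093799 to 25097140, minus strand) had 2427, 1495, 1582 and 2138 CPM in the KO mice, against 943, 645, 1586 and 800 CPM in the control mice. Control mouse 3 was level with KO mouse 3 and above KO mouse 2, so the groups overlapped. The log2 fold change was 0.95 ± 0.23 (95% interval 0.47 to 1.42, adjusted p = 0.0196). Pools ranged from 939 to 2891 CPM (median 1912) in KO tumours and from 346 to 1731 (median 864) in control tumours, and 8 of 11 KO pools were above every control pool. The call of Id2 was lost without the same 4 mice as that of Irf8, with a robust estimate of dispersion (adjusted p = 0.0703), when only pools 2 and 3 of each mouse were used (log2 fold change 0.66, adjusted p = 0.128), and in the same 3 settings without marker-rich pools (0.91, 0.85 and 0.77).

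Batf3 (ENSMUSG00000026630, chromosome 1, 191097847 to 191108945, plus strand) had 175, 130, 107 and 173 CPM in the KO mice, against 80.5, 120, 130 and 172 CPM in the control mice. The mice of both groups were interleaved, and the highest control mouse, mouse 4, was close to the highest KO mice. The log2 fold change was 0.17 ± 0.33 (adjusted p = 0.845), with a 95% interval of -0.52 to 0.86 that includes the fold changes of Irf8 and, at its upper end, nearly those of Id2 and Zbtb46. Pools held between 4 and 12 Batf3 counts in KO tumours and between 1 and 13 in control tumours, so a change of moderate size was not detectable at this depth. The highest of all 23 pools was pool 3 of control mouse 4, with 13 counts and 365 CPM.

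Zbtb46 (ENSMUSG00000027583, chromosome 2, 181387762 to 181459426, minus strand) had 146, 178, 91.9 and 116 CPM in the KO mice, against 46.0, 43.0, 110 and 78.4 CPM in the control mice. Only control mouse 3 reached into the range of the KO mice. The log2 fold change of 0.87 ± 0.39 was as large as that of Irf8 but did not pass the threshold (95% interval 0.06 to 1.67, adjusted p = 0.226). Zbtb46 had a count in 11 of 11 KO pools and in 10 of 12 control pools, with a median of 5 and 2 counts. In the control pools without a count, 0 counts allow up to 134 and 143 CPM, which covers the median of the KO pools (138 CPM) in 1 of them. GENCODE M21 places the small gene model Gm22708, not analysed here, on the same strand within Zbtb46.

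Nfil3 (ENSMUSG00000056749, chromosome 13, 52967209 to 52981073, minus strand) had 58.5, 35.6, 81.6 and 82.6 CPM in the KO mice, against 138, 86.0, 110 and 110 CPM in the control mice. All KO mice were below all control mice, by a narrow margin between KO mouse 4 and control mouse 2. Such a separation was found in 5.73% of tested genes. The counts were 35 in the KO group and 47 in the control group, and the gene did not pass the count filter. When the filter was dropped, its log2 fold change was -0.70 (adjusted p = 0.629 over 13311 genes), and with a minimum count of 5 it was -0.74 (adjusted p = 0.396 over 3741 genes). In 1 KO pool Nfil3 had 0 counts, which allows up to 68.8 CPM there.

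**Figure D2:**
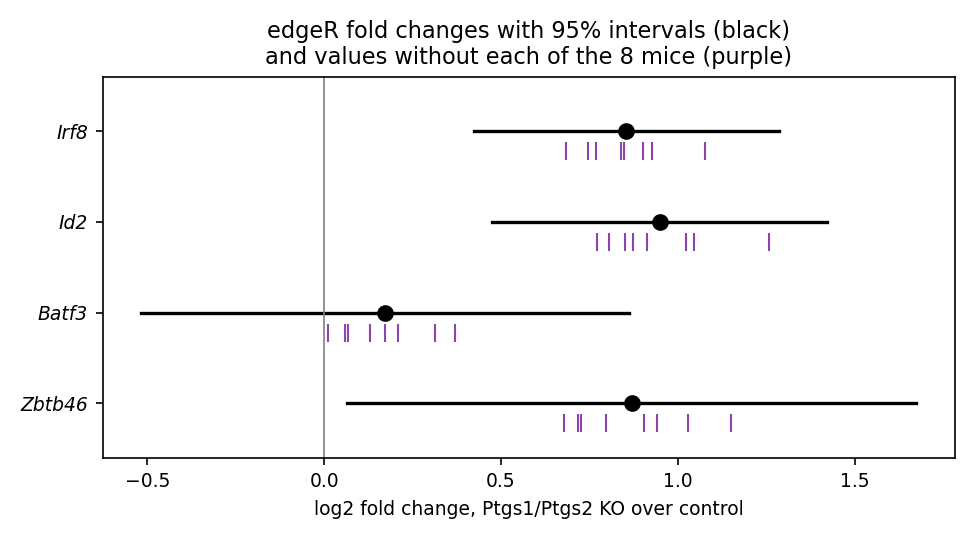
Log2 fold changes of the 4 tested genes, Ptgs1/Ptgs2 KO over control, from edgeR, with 95% intervals as black lines and the values without each of the 8 mice as purple marks. The intervals of Irf8, Id2 and Zbtb46 lie above 0 and that of Batf3 spans 0; the adjusted p passed the threshold for Irf8 and Id2.

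Ratios between members within a mouse do not depend on how libraries are scaled, and were compared for all 10 pairs by an exact two-sided permutation test over the 70 assignments of the 8 mice, whose smallest possible p is 0.0286. Of the 10 pairs, 3 had an exact p under 0.05 and 0 passed the Benjamini-Hochberg adjustment over the pairs. The ratio of Irf8 to Id2 was 0.72, 1.05, 0.79 and 0.69 counts per count in the KO mice, against 1.00, 0.85, 0.76 and 0.81 in the control mice. The log2 ratio differed by -0.09 ± 0.16 (KO minus control, SE; exact p = 0.543, adjusted p = 0.679), and over all pairings of a KO with a control mouse the difference ran from -0.53 to 0.46. The ratio of Irf8 to Zbtb46 averaged 11.3 in KO mice and 11.6 in control mice (geometric means), a log2 difference of -0.03 ± 0.29 with a range from -1.10 to 0.74 (exact p = 0.943, adjusted p = 0.943). For Id2 to Zbtb46 the log2 difference was 0.06 ± 0.32 with a range from -1.17 to 0.87 (exact p = 0.886, adjusted p = 0.943). The mice of both groups overlapped in all 3 of these ratios.

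The ratio of Irf8 to Batf3 was 9.70, 11.5, 11.4 and 8.35 in the KO mice, against 11, 4.45, 8.93 and 3.71 in the control mice. Control mice 1 and 3 lay within the KO range and control mice 2 and 4 below it, and the log2 difference was 0.68 ± 0.40 (exact p = 0.2, adjusted p = 0.286). The SD of this log2 ratio was 0.22 among KO mice and 0.76 among control mice. The ratio of Id2 to Batf3 behaved alike, with a log2 difference of 0.77 ± 0.37 (exact p = 0.0857, adjusted p = 0.143).

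Ratios to Nfil3 gave the widest differences. Irf8 to Nfil3 was 27.6, 37.9, 14.9 and 17.1 in the KO mice, against 6.60, 6.14, 10.5 and 5.76 in the control mice. All KO mice were above all control mice, with a log2 difference of 1.69 ± 0.37 (exact p = 0.0286, adjusted p = 0.0952). Each of the 2 genes alone already separated the mice, in opposite directions. Their ratio therefore had to separate with the smallest possible p, and it adds nothing to the separations of the single genes. Id2 to Nfil3 was 38.4, 36.1, 18.8 and 24.7 in the KO mice, against 6.60, 7.19, 13.8 and 7.07 in the control mice (log2 difference 1.78 ± 0.35, exact p = 0.0286, adjusted p = 0.0952). Zbtb46 to Nfil3 was 2.38, 4.43, 1.12 and 1.38 in the KO mice, against 0.36, 0.52, 1.00 and 0.72 in the control mice (log2 difference 1.73 ± 0.55, exact p = 0.0286, adjusted p = 0.0952). Batf3 to Nfil3 overlapped, with a log2 difference of 1.01 ± 0.43 (exact p = 0.0857, adjusted p = 0.143), and so did Batf3 to Zbtb46 with -0.71 ± 0.33 (exact p = 0.0857, adjusted p = 0.143). The 4 ratios to Nfil3 share their denominator and are not independent. Of the counts of the 5 genes, Nfil3 made up 1.76% ± 0.73 in KO mice and 5.49% ± 1.33 in control mice (mean ± SD), Batf3 3.87% ± 0.37 and 6.44% ± 2.92, Irf8 40.4% ± 3.95 and 39.1% ± 3.38, and Id2 50.4% ± 4.52 and 45.8% ± 3.15.

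**Figure D3:**
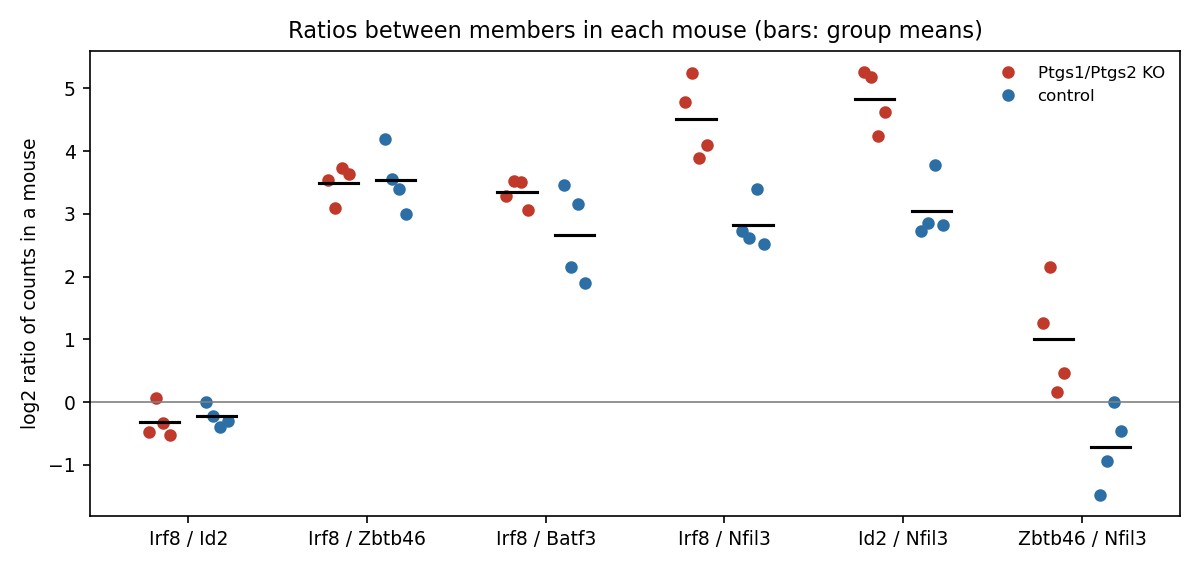
Log2 ratios of counts between members for 6 of the 10 pairs, with each mouse as a point, Ptgs1/Ptgs2 KO left of control for each pair, and the group mean as a bar. The ratios of Irf8, Id2 and Zbtb46 to Nfil3 are separated between the groups, while those of Irf8 to Id2 and to Zbtb46 overlap. The ratio of Batf3 to Nfil3, which is not drawn, overlaps as well.

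The members differed in how evenly pools of the same mouse carried them. The Pearson statistic of pool counts about the rate of their mouse, divided by its 15 degrees of freedom, is near 1 when counting noise alone is at work, and its median over all tested genes was 1.71. It was 7.50 for Id2, higher than in 86.6% of the 119 genes whose total count was within 1.5 times that of Id2 (median 2.80). For Irf8, with a similar total count (1084, against 1361 for Id2), it was 1.84, and 19.2% of 130 genes of like count were lower (median 2.68). Id2 was thus patchy between pools of 10 cells of the same tumour, and Irf8 comparatively even. In KO mouse 3, for example, the pools had 2203, 1912 and 939 CPM of Id2, and in control mouse 4 they had 434, 1266 and 675. Irf8 in those pools had 1633, 1195 and 999 CPM in KO mouse 3 and 672, 655 and 619 in control mouse 4. The statistic was 1.51 for Batf3, 1.44 for Nfil3 and 0.95 for Zbtb46. Within the groups it was 2.39 in KO and 1.35 in control tumours for Irf8, and 8.15 and 6.94 for Id2. It was 0.73 and 2.19 for Batf3, 2.11 and 0.85 for Nfil3, and 0.73 and 1.14 for Zbtb46. These differences between the groups were not tested, and Batf3, Nfil3 and Zbtb46 had few counts per pool. Leaving out 1 mouse moved the value of Irf8 between 1.20, without KO mouse 3, and 2.11, and that of Batf3 fell to 0.88 without control mouse 4. That of Nfil3 fell to 1.06 without KO mouse 1. For Id2 it stayed between 5.52 and 8.17.

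Of the sum of squares of log2(CPM + 10) of Irf8 over the 23 pools, 58.7% lay between the groups, 27.6% between mice of a group and 13.7% between pools of a mouse. Such shares are not adjusted for degrees of freedom, so noise alone also gives shares between groups and between mice. Medians over all tested genes are given beside them, but the shares were not compared with those of genes of like count. In CPM, Irf8 lay above 93.0% of tested genes and Id2 above 94.3%. Counting noise adds more to the share between pools in genes with fewer counts, so the medians are no measure for genes of this level. For Id2 the shares were 47.9%, 20% and 32.2%, against medians of 5.1%, 24.8% and 65.3% over all tested genes. For Zbtb46 29.4% lay between the groups, for Nfil3 17.0% and for Batf3 8.0%, with most of the remainder between pools of a mouse.

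**Figure D4:**
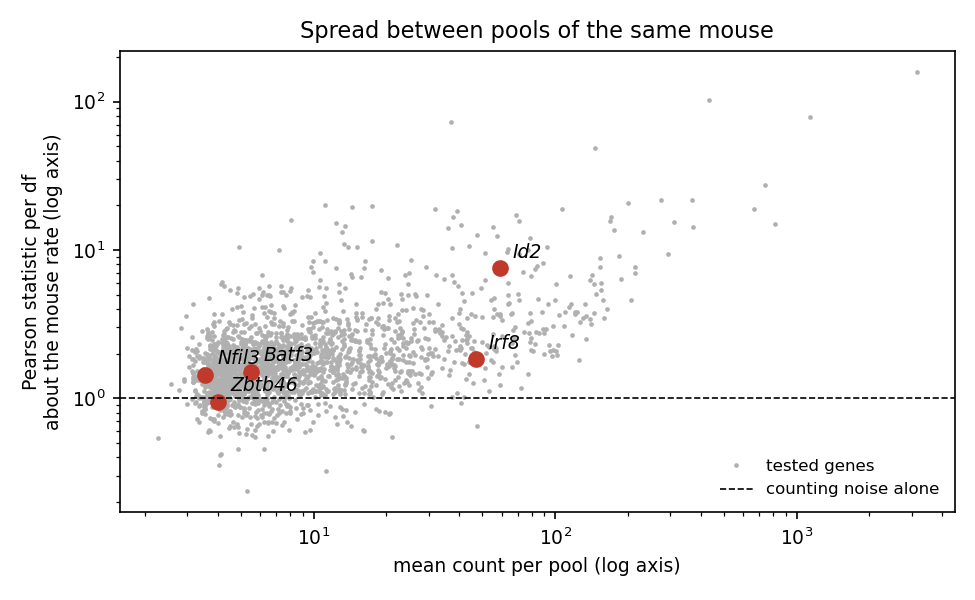
Pearson statistic per degree of freedom of pool counts about the mouse rate against the mean count per pool, both on log axes; grey points are the 2076 tested genes, red points the 5 members and the dashed line counting noise alone. Id2 lies at 7.50 and Irf8 at 1.84 at similar mean counts.

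After each group's mean was taken off, Irf8 and Id2 followed each other over the 23 pools with a Pearson correlation of log2(CPM + 10) of 0.61, while Irf8 and Batf3 did not (-0.09), nor did Id2 and Batf3 (-0.01). All pools of a mouse share its tumour, and all values of a pool share its depth, so these are descriptions. By the same measure the tested genes most like Irf8 were Ufm1 (0.67), Med28 (0.57) and Adam8 (0.55), and those most like Id2 were Gtf2a1 (0.60), Ndrg1 (0.55) and Tubb2a (0.54). For Batf3 they were Akap9 (0.64) and Sf3b1 (0.60), for Zbtb46 Naa38 (0.79), Ubash3b (0.77) and Sh3pxd2b (0.76), and for Nfil3 Rdx (0.69), Fem1c (0.65) and Rtf2 (0.64). Most of these have few counts, and of those named here only Tubb2a, a tubulin, was called between the groups. The summed cDC1 identity genes correlated with Id2 by 0.49 and with Irf8 by 0.41, and with Batf3 by -0.27.

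Over pools, Irf8 and Id2 were also set beside the markers of macrophages and cDC2. Macrophage and cDC2 markers together had 10 or more counts in 2 of 11 KO pools and in 9 of 12 control pools. Over the pools of each group, Irf8 tended to be lower where they were higher. The correlations were -0.44 in KO tumours (11 pools) and -0.71 in control tumours (12 pools), and for Id2 -0.53 and -0.48. Pools of a mouse are not independent. Differences between the mice of a group were not taken off, so these values describe mice and pools together. In KO pools with fewer than 10 such counts, Irf8 ranged from 1195 to 1976 CPM with a median of 1582 (9 pools), and in the corresponding control pools from 972 to 1492 with a median of 1028 (3 pools). In the 2 KO pools with 10 or more, Irf8 had 999 and 1577 CPM, the higher of them at the median of all KO pools. In control pools with 10 or more, Irf8 ranged from 415 to 998 CPM with a median of 672. Id2 had a median of 2158 CPM in the 9 KO pools and 777 in the 3 control pools with few such counts, and of 951 in the 9 control pools with more. When all pools with 10 or more were left out, a setting chosen after seeing the data that keeps 9 KO pools of 4 mice and 3 control pools of 2 mice, the log2 fold change of Irf8 was 0.30 (adjusted p = 0.724), that of Id2 0.77 (adjusted p = 0.381) and that of Zbtb46 0.20 (adjusted p = 0.946). The control mice that remained, mice 1 and 3, had the highest Irf8 levels of their group (943 and 1204 CPM, against 551 and 651). The control pools kept include the highest control pool for Irf8 (1492 CPM) and for Zbtb46 (184 CPM). Fewer marker counts and the choice of mice cannot be told apart in this setting. The part of macrophages and cDC2 in the differences between the groups was not tested.

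**Figure D5:**
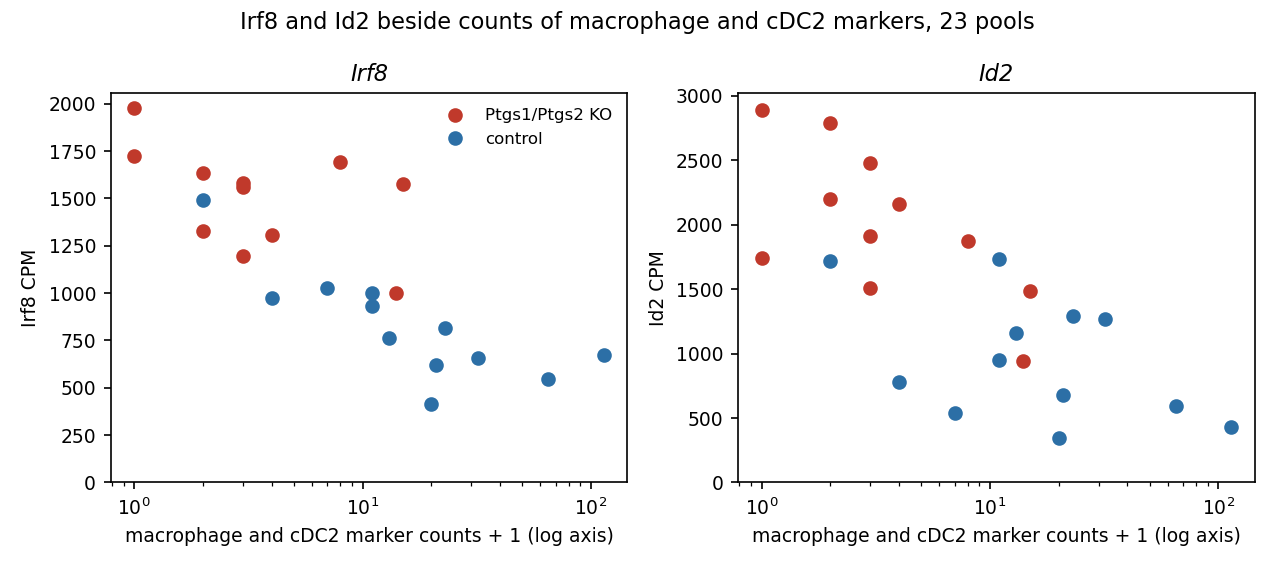
CPM of Irf8 (left) and Id2 (right) on a linear axis from 0 against the summed counts of macrophage and cDC2 markers plus 1 on a log axis, with 1 point per pool (11 Ptgs1/Ptgs2 KO, 12 control). Pools with 10 or more marker counts are mostly control pools (2 of 11 KO pools and 9 of 12 control pools); Irf8 is 999 and 1577 CPM in those KO pools and 415 to 998 CPM in those control pools.

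pDC also express Irf8 strongly, and their markers had 35 counts in the KO group and 240 in the control group. Of the 12 control pools, the 5 with 10 or more pDC marker counts had 415 to 998 CPM of Irf8 (median 672) and the 7 others 544 to 1492 (median 816), while all 11 KO pools had fewer than 10. Within the control group Irf8 correlated with the pDC markers by -0.18. Without those 5 pools the log2 fold change of Irf8 was 0.75 (adjusted p = 0.109) and that of Id2 0.91 (adjusted p = 0.0566), neither called, and that of Batf3 was -0.17 (adjusted p = 0.877). The part of pDC in the differences between the groups was not tested. Natural killer and innate lymphoid cells express Id2 and Nfil3, and their markers were sparse, with 24 counts in the KO group, 19 of them Gzmb, and 10 in the control group.

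Genes used to recognise cDC1 rose in part. Of 12 tested genes in the cDC1 identity list, 3 rose and 0 fell, against 2.7% and 2.26% of all tested genes, and the median log2 fold change was 0.34, against 0.01 over all tested genes. Xcr1, the chemokine receptor that marks the subset, had 318 ± 59.1 CPM in KO mice and 73.3 ± 46.5 in control mice (log2 fold change 2.16 ± 0.38, adjusted p = 0.00242). Naaa, a lysosomal amidase, and Tlr3, which senses RNA duplexes, had log2 fold changes of 1.08 ± 0.23 (adjusted p = 0.0104) and 1.25 ± 0.35 (adjusted p = 0.0448). Itgae, which encodes the sort marker CD103, was named after its values were seen and was not called (0.93 ± 0.31, adjusted p = 0.0948). The 3 others with the most counts were not called either. Wdfy4, needed for cross-presentation and linked to BATF3 in the mouse, had 854 ± 133 CPM in KO mice and 687 ± 105 in control mice (0.32 ± 0.18, adjusted p = 0.387). Cd24a, a surface glycoprotein, had 0.18 ± 0.19 (adjusted p = 0.67), and Ppt1, a lysosomal thioesterase, 0.03 ± 0.20 (adjusted p = 0.951). Clec9a, the receptor for actin of dead cells, was named after its values were seen and had 217 ± 62.5 CPM in KO mice and 172 ± 58.1 in control mice (0.34 ± 0.31, adjusted p = 0.609).

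Among 29 partners and competitors of the members, 15 were tested, of which 0 rose and 2 fell, against 2.7% and 2.26% of all tested genes. Their median log2 fold change was -0.32, against 0.01 over all tested genes. Tcf4, the E protein of pDC that ID2 opposes, had 63.9 ± 36.0 CPM in KO mice and 250 ± 149 in control mice (-2.08 ± 0.48, adjusted p = 0.0163). It is itself among the pDC markers, of which 4 had 0 counts in the KO group. Runx3, a Runt family factor, had 174 ± 36.7 CPM in KO mice and 338 ± 75.2 in control mice (-0.94 ± 0.27, adjusted p = 0.0466), with all KO mice below all control mice. For Runx1, a relative of Runx3 with many counts, the value was -0.59 on the log2 scale (adjusted p = 0.334). Jun, Spi1, Irf1, Irf4 and Batf are named for their roles, after their values were seen. Of the AP-1 proteins that can pair with BATF3, Junb had 443 ± 128 CPM in KO mice and 380 ± 116 in control mice (0.18 ± 0.26, adjusted p = 0.774), and Jun had 69.2 ± 28.1 and 162 ± 88.7 (-1.30 ± 0.43, adjusted p = 0.0892). Fos, another AP-1 subunit, had 1169 ± 416 and 705 ± 92.6 CPM (0.71 ± 0.21, adjusted p = 0.0568). Spi1, which encodes PU.1, the Ets partner of IRF8, had 129 ± 50.01 CPM in KO mice and 163 ± 43.1 in control mice (-0.30 ± 0.33, adjusted p = 0.685). Irf1 had 249 ± 202 and 65.8 ± 48.0 CPM (1.82 ± 0.59, adjusted p = 0.0795). Irf4, the cDC2 counterpart of Irf8, had 2 counts in the KO group and 14 in the control group, and Batf, a close relative of Batf3, 13 and 9, and neither was tested. Batf2 and Id1 were not analysed here.

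Maturation genes had between 13 and 165 counts in KO pools and between 1 and 87 in control pools. Of 6 tested maturation genes 2 rose and 0 fell, against 2.7% and 2.26% of all tested genes. One was Il12b, a subunit of the cytokine IL-12 and a known target of IRF8, with 2.86 ± 0.71 (adjusted p = 0.0259). Its level was 481 ± 501 CPM in KO mice and 57.3 ± 63.55 in control mice, and the groups overlapped. The other was Cacnb3, a calcium channel subunit, with 1.65 ± 0.45 (adjusted p = 0.0432) and all KO mice above all control mice. Those not called included Ccr7, the receptor that guides migration to lymph nodes, with 0.45 (adjusted p = 0.489), Fscn1, an actin-bundling protein, with 1.54 (adjusted p = 0.0546), and Cd86, a costimulatory ligand, with -0.04 (adjusted p = 0.955). Over the 23 pools, with group means taken off, the summed maturation genes correlated with Zbtb46 by 0.32, with Id2 and Batf3 by 0.14, with Irf8 by -0.09 and with Nfil3 by -0.11.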

How the data were processed

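RNA of sorted cDC1 was sequenced by Smart-seq3, which suits very small inputs. The authors deposited raw counts for each gene in each library. STAR 2.5.4b and the mouse build GRCm38 (mm10) are named in the submitters' processing notes. The program used for counting is not given in the sources used here, nor whether reads or molecular identifiers were counted. Limits for 0 counts (3 counts) therefore cover counting error only.

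Counts were summed per mouse (4 against 4). filterByExpr (minimum count 10) left 2076 genes, which were tested with the edgeR 4.0.16 quasi-likelihood test (R 4.3.3, TMM scaling, Benjamini-Hochberg adjustment across these genes, threshold 0.05). CPM are counts over TMM-adjusted totals of the tested genes. The SE is the log2 fold change divided by the square root of F. The labels do not name separate experiments, so p-values measure the spread between these 8 mice. Ratios used a pseudocount of 0.5 and exact permutation. Exon lengths and positions are from GENCODE M21 (GRCm38), in which 13556 of 13572 rows were found. Among all pairs of libraries the lowest chi-squared per degree of freedom between their counts was 1.62, so each was counted as its own pool.

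Named genes were the 5 members, the 3 genes most alike to each by correlation over pools, called genes of the lists, and up to 3 others per list with the most counts; exceptions are marked, and 1 gene the rule names is not reported here. The members and lists were chosen with earlier results of these data known. Alternatives were other scalings, filters, DESeq2 1.42.0, limma 3.58.1 with voom, and leaving out mice, pools or marker-bearing pools. The test was tried on simulated data.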

Additional observations from a re-analysis of the deposited data

Results flagged for a closer look

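In 2 of 30 sets of 4 mice, which covered the levels and log2 ratios of the members in each group, 1 mouse stood far from the others by Dixon's criterion, and chance flags about 1 in 20 such sets. The log2 ratio of Id2 to Zbtb46 was 3.03 in KO mouse 2, below the other KO mice at 4.01 to 4.16. That mouse had 2 pools, the lowest Id2 level of its group (1495 CPM) and the highest Zbtb46 level (178 CPM). The log2 ratio of Id2 to Nfil3 was 3.78 in control mouse 3, above the other control mice at 2.72 to 2.85. That mouse had the highest Id2 level of the control group (1586 CPM).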

How the results depend on the processing

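The signs of the fold changes of Irf8, Id2 and Zbtb46 held in every alternative in which they were tested, and those of Nfil3 were negative in each of the 13 fits that tested it. Irf8 was not called from pools 2 and 3 alone (0.80, adjusted p = 0.0577), without pools rich in pDC markers (0.75), without those rich in pDC, macrophage, T and NK markers (0.47, adjusted p = 0.484, with 4 control pools of 3 mice) and without those rich in macrophage and cDC2 markers (0.30). The last setting kept 3 control pools, from the 2 control mice with the highest Irf8 levels. Id2 was not called in the same 4 settings (0.66, 0.91, 0.85 and 0.77) and with robust dispersion (0.95). Over all alternatives the adjusted p ran from 0.000632 to 0.724 for Irf8 and from 0.000254 to 0.381 for Id2. Batf3 was reversed without pools rich in pDC markers (-0.17). Leaving out 1 mouse or 1 pool gave 0.68 to 1.08 for Irf8, 0.77 to 1.26 for Id2, 0.01 to 0.42 for Batf3, 0.68 to 1.17 for Zbtb46 and -0.85 to -0.53 for Nfil3.

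Numbers of called genes, 56 higher and 47 lower, became 110 and 84 without a filter, 32 and 19 from pools 2 and 3 alone, 31 and 14 without pDC-rich pools, 6 and 4 without pools rich in pDC, macrophage, T and NK markers, and 4 and 2 without macrophage- and cDC2-rich pools. Lower genes were 24 with library totals alone, 28 with the mouse number as a block and 79 with limma-voom. Leaving out 1 mouse or pool gave 29 to 67 higher and 19 to 53 lower genes, with the fewest higher genes without pool 2 of KO mouse 2 and the fewest lower genes without pool 2 of KO mouse 1.

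No ratio passed the adjustment in any alternative, which the design largely fixed: with 4 mice a group at least 6 of the 10 pairs would have to reach the smallest p, and with the block no p under 0.125 was possible. The sign turned for Irf8 to Zbtb46 with a pseudocount of 2 (0.10), for Irf8 to Id2 (0.15) and Id2 to Zbtb46 (-0.23) from pools 2 and 3 alone. Without 1 mouse the differences ran from -0.22 to 0.19 for Irf8 to Zbtb46 and from -0.10 to 0.32 for Id2 to Zbtb46. The cause of these changes was not tested. Same-numbered mice of the 2 groups were not paired, since their deviations correlated by -0.089 to 0.1 and none correlated best with its own number. With the mouse number as a replicate block, Irf8 (0.89, adjusted p = 0.0252) and Id2 (0.98, adjusted p = 0.0193) were still called. Depth limits Batf3, Zbtb46 and Nfil3.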
